A study of Mus musculus with 16 samples.

Results

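The genes described here encode the proteins of the cytosolic ribosome, the particle that translates messenger RNA. They were taken as every gene with a probe set of 1 symbol whose symbol is Rpl or Rps followed by a number, with an optional a, x, l or l1 at its end, together with Rpsa, Rplp0, Rplp1 and Rplp2, and without Rps6k genes and symbols containing -ps. This gave 66 of the 22180 genes of the table, 42 of the large subunit and 24 of the small subunit. A further 12 genes of the family (Rpl10, Rpl12, Rpl13a, Rpl23, Rpl24, Rpl31, Rpl35a, Rpl36, Rpl36a, Rps15a, Rps2 and Rps21) had only probe sets that name several genes, and were left out.

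Expression was measured on 16 arrays of myeloid progenitors sorted from the bone marrow of C57BL/6 mice. The antibiotic groups held CMPs, GMPs and cMoPs, with 3 arrays each, from mice that drank ampicillin, metronidazole, neomycin and vancomycin, each at 1 g/L, for 3 weeks. The control groups held 3 arrays of CMPs, 2 of GMPs and 2 of cMoPs from mice on control water, and both waters contained 2% sucrose. CMPs (common myeloid progenitors) were Lin- c-Kit+ CD105- cells with intermediate CD16/32 and no CD115, GMPs (granulocyte-monocyte progenitors) had high CD16/32 and no CD115, and cMoPs (committed monocyte progenitors) were positive for CD115 and Ly6C. The labels give no allele or transgene, and do not say whether an array stands for 1 mouse or a pool, so the p-values rest on a spread between samples that may be technical. From each sample 2.6 ng of RNA was amplified before hybridisation.

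A ribosome has a large subunit, which forms the peptide bond, and a small subunit, which reads the message, and each holds ribosomal RNAs and a set of mostly single-copy proteins. The genes of these proteins are among the most strongly expressed of a growing cell, and many of their mRNAs begin with a C followed by a run of C and T bases, the terminal oligopyrimidine (TOP) motif, through which the mTOR pathway controls their translation. In blood, loss of 1 copy of single ribosomal protein genes impairs red cell formation, as in Diamond-Blackfan anaemia. The array reads mRNA and gives no measure of ribosome number or of translation.

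All values are log2 signals as deposited, and a difference is the mean of the first named group minus that of the second. Each gene was read from its brightest probe set, tested with limma in 1 fit of 6 groups, and called at a Benjamini-Hochberg rate over the 22180 genes under 0.2 for antibiotics, the rate in the study's design, and under 0.05 between progenitors. The median signal of the arrays over genes lay between 4.34 and 4.46. Markers of the sorted cells followed the labels: 9 of 9 CMP markers were lower in GMPs than in CMPs, 10 of 10 GMP markers were higher there, and 9 of 10 cMoP markers were higher in cMoPs than in GMPs. Summed signals of markers of other cells also differed between progenitors, and a sum is carried mostly by its brightest genes. The log2 summed signal of 10 erythroid markers was 12.66 to 12.81 in CMPs, 9.35 to 9.59 in GMPs and 8.82 to 9.13 in cMoPs. That of 12 megakaryocyte markers was 10.59 to 10.94, 8.63 to 9.35 and 7.83 to 8.10 in the same order, and that of 11 stem cell markers 9.49 to 9.87, 8.45 to 8.83 and 7.83 to 8.30. That of 10 mast cell, basophil and eosinophil markers was 10.08 to 10.88, 12.38 to 13.12 and 8.76 to 9.36. That of 12 T and NK cell markers was 9.96 to 10.31, 11.59 to 11.89 and 10.56 to 10.94, and that of 13 dendritic cell markers 10.32 to 10.67, 9.60 to 9.98 and 9.86 to 10.02. The mature neutrophil sum, of 15 markers, was 12.96 to 13.30, 13.08 to 13.35 and 12.56 to 12.78, the stroma and endothelium sum, of 11, was 8.92 to 9.23, 9.44 to 9.67 and 9.12 to 9.49, and the B cell sum, of 10, was 8.47 to 9.04, 9.03 to 9.20 and 8.90 to 9.25. Gene by gene, 7 of 12 T and NK cell, 7 of 10 B cell and 12 of 15 mature neutrophil markers were lower in GMPs than in CMPs. Their medians were -0.04, -0.29 and -0.24, so these sums do not stand for most genes of their lists. The part of such cells in the differences between progenitors below was not tested. In a sorted population, fewer cells of a type and less RNA per cell cannot be told apart.

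The ribosomal protein genes were bright and steady. Their median level was 10.60, against 4.42 for all genes, and 37 of the 66 lay in the brightest 5% of genes. Rplp1, a protein of the stalk that recruits elongation factors, was the brightest gene of the table on 16 of 16 arrays, at 13.54 to 13.75. Rps12, of the small subunit, lay between 13.18 and 13.28 over all arrays, the narrowest range of the 66, and Rpl28, of the large subunit, between 12.94 and 13.15. A range under 1 log2 unit over the 16 arrays was found for 50 of the 66. The residual SD within groups had a median of 0.115 over the 66 genes and of 0.212 over all genes, and of 0.076 over the brighter 33 members and 0.203 over the dimmer 33.

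The dimmest members were mostly named as paralogs. Rpl32l averaged 2.17 and Rpl10l, in mammals a testis gene, 2.31 over all arrays. Rpl3l, the heart and skeletal muscle paralog of Rpl3, averaged 3.90. Rpl39 and Rps15 averaged 4.10 and 4.83, although both are core proteins of the ribosome. Of the 66, 4 lay below the median gene. Levels of different probe sets depend on their probes, so these values place each gene within the array and do not rank transcripts.

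The mean over the 66 genes stayed in a narrow band. In CMPs it was 9.30, 9.35 and 9.38 after antibiotics, against 9.34, 9.37 and 9.37 in controls. In GMPs it was 9.20, 9.24 and 9.34 after antibiotics, against 9.26 and 9.28 in controls. In cMoPs it was 9.41, 9.31 and 9.38 after antibiotics, against 9.21 and 9.35 in controls. The waters overlapped in each progenitor, and cMoP control 1 was the lowest cMoP array.

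**Figure D1:**
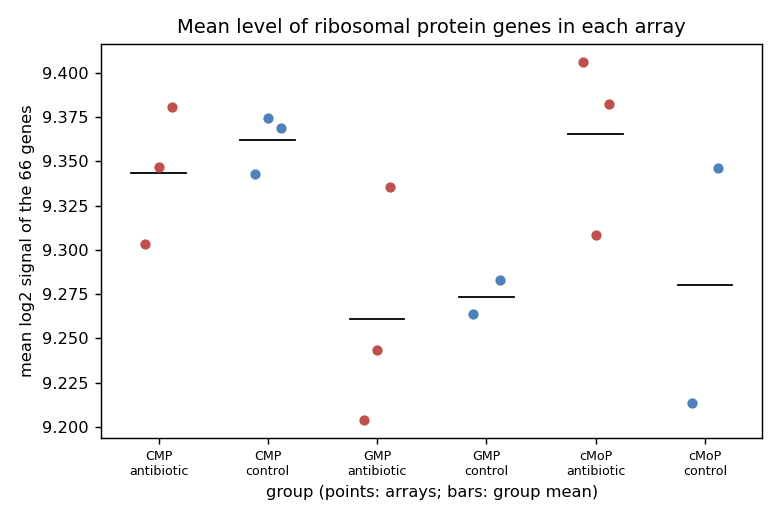
Mean log2 signal of the 66 ribosomal protein genes (y axis) in each of the 16 arrays, by progenitor and water (x axis). Points are arrays and bars are group means; the y axis does not start at 0. All means lie between 9.20 and 9.41, and antibiotic and control arrays overlap in every progenitor.

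Start sites were looked up in the RefSeq table of GRCm38.p6, which matched 51 of the 66 genes with 60 starts. A C followed by at least 5 C or T bases, on the strand of the gene and with the C within 10 bases of the start, was found in 27 of 51 members (52.9%), against 22.2% of 16939 other genes. With the C at the start base itself and at least 4 C or T after it, the count was 11 of 51 (21.6%), against 2.69% of the others. GGAAGT, read on both strands of the window from 250 bases before the start to 50 after it, was found in 47.1% of the members and 27.6% of the other genes. GGGCGG was found in 52.9% and 49.5%, CACGTG in 7.84% and 9.19%, AAGATGGC in 5.88% and 3.63%, and TATAAA between 40 and 15 bases before the start in 1.96% and 2.86%. These searches and their settings were chosen after the values were seen, and a match is a description of the letters. The windows below, 25 bases before the start and 25 from it on, are given for Rpl34 and Rpl37a, which differed between progenitors, for Rpl5 and Rplp2, which had the smallest p for antibiotics in cMoPs, for Rps6 and Rpl38, which were bright and steady, and for the pair Rps27 and Rps27l and the muscle paralog Rpl3l. Rpl34, Rps27l and Rpl3l have a second start in the table, shown as well. Capitals mark the longest run found by the search, which looked for its C no further than 10 bases before the start.
Rpl34, chr3:130730313-130730362, minus strand: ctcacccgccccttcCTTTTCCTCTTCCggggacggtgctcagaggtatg
Rpl34, chr3:130730374-130730423, minus strand: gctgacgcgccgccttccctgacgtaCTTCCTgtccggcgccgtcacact
Rpl37a, chr1:72711235-72711284, plus strand: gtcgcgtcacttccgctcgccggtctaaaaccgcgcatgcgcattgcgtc
Rpl5, chr5:107900503-107900552, plus strand: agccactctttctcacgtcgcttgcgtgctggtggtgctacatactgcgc
Rplp2, chr7:141447626-141447675, plus strand: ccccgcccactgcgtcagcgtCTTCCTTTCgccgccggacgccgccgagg
Rps6, chr4:86857343-86857392, minus strand: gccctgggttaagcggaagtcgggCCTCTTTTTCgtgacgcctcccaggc
Rpl38, chr11:114668555-114668604, plus strand: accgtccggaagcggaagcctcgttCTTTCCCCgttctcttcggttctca
Rps27, chr3:90213624-90213673, minus strand: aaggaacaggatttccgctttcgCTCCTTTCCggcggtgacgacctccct
Rps27l, chr9:66946061-66946110, plus strand: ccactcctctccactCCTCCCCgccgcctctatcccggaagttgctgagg
Rps27l, chr9:66946388-66946437, plus strand: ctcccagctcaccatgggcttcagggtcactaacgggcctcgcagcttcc
Rpl3l, chr17:24727801-24727850, plus strand: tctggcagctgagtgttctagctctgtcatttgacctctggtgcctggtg
Rpl3l, chr17:24732660-24732709, plus strand: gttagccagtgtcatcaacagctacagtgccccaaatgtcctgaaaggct

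In these windows the runs of Rps6, Rpl38, Rplp2 and Rps27, of 10, 8, 9 and 9 bases, include the start. So does the run marked at the first printed start of Rpl34. Its 13 marked bases begin at the edge of the search, and the letters before them continue the run. The run of 6 bases at the other start of Rpl34 begins after the start base. Rpl37a, Rpl5 and both starts of Rpl3l have no run that begins within 10 bases of the start. The run of Rps27 begins 2 bases before the annotated start. The marked run at the first start of Rps27l begins at the edge of the search, 10 bases before the start, and also continues further before it. The second start of Rps27l has none. The 27 members with the run had a median of -0.054 between GMPs and CMPs and of -0.003 between cMoPs and GMPs, against -0.099 and 0.062 for the 24 without it. For antibiotics in CMPs 22 of the 27 and 12 of the 24 were below 0. In that comparison 51.7% of all genes were below 0, and 66.9% of the genes of the brightest 5% other than members. These values were not compared by a test.

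Between GMPs and CMPs most ribosomal protein genes leaned lower in GMPs, by small amounts, and 2 fell. Of the 66, 2 were called, both lower in GMPs, which is 3.03% against a background of 16.0 percent of all genes in either direction, 7.87 percent higher and 8.17 percent lower. The difference was below 0 for 56 of the 66, with a median of -0.081, against 45.4% of all genes and a median of 0.025. Among the other 1071 genes of the brightest 5%, a comparison added after the values were seen, 57.0% were below 0, with a median of -0.046. Of these 1071 genes, 29.9% were called in either direction. Over the alternatives of scaling, probe set, fit and left-out array, 51 to 57 members were negative and the median lay between -0.105 and -0.061. Taken by water, a split added after the values were seen, the count was 52 of 66 in antibiotic water and 56 of 66 in control water. The large subunit had 37 of 42 below 0 and the small subunit 19 of 24. The count of calls was 1 without any one of CMP antibiotic 3, CMP control 3, GMP antibiotic 2 and GMP control 1, which left Rpl3, and 4 without CMP control 1, which added Rpl27a and Rpl37a. With limma's trended and robust variances 7 were called, the others being Rpl14, Rpl21, Rpl37a, Rps26 and Rps4x.

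Rpl3, a large subunit protein next to the site of peptide bond formation, fell. It had 10.42, 10.58 and 10.39 in antibiotic GMPs and 10.75 and 10.32 in control GMPs, against 11.38, 11.07 and 11.09 in antibiotic CMPs and 11.14, 10.81 and 10.98 in control CMPs. Every GMP array lay below every CMP array. The difference was -0.58 ± 0.12 (SE), with limma's adjusted p = 0.00309. The table holds 2 other probe sets of Rpl3, which differed by -0.01 and 0.00, and the call was lost with the mean of all its probe sets (-0.20, adjusted p = 0.23).

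Rpl17, a protein at the exit of the tunnel for the new peptide, also fell. It had 6.31, 6.17 and 6.39 in antibiotic GMPs and 5.98 and 6.20 in control GMPs, against 6.50, 6.40 and 6.80 in antibiotic CMPs and 6.48, 6.62 and 6.63 in control CMPs. The groups did not overlap, but the highest GMP array, at 6.39, and the lowest CMP array, at 6.40, nearly met. The difference was -0.38 ± 0.11 (limma's adjusted p = 0.0244), and it lost the call in 4 of 27 alternatives, each without 1 array (CMP antibiotic 3, CMP control 3, GMP antibiotic 2 or GMP control 1), with an adjusted p of up to 0.12. Rpl37a, Rpl26 and Rpl27a, of the large subunit, had differences of -0.25, -0.44 and -0.29 with limma's adjusted p of 0.0742, 0.0904 and 0.0987. Rps4x, the X-linked small subunit protein, had -0.20 (limma's adjusted p = 0.164).

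**Figure D2:**
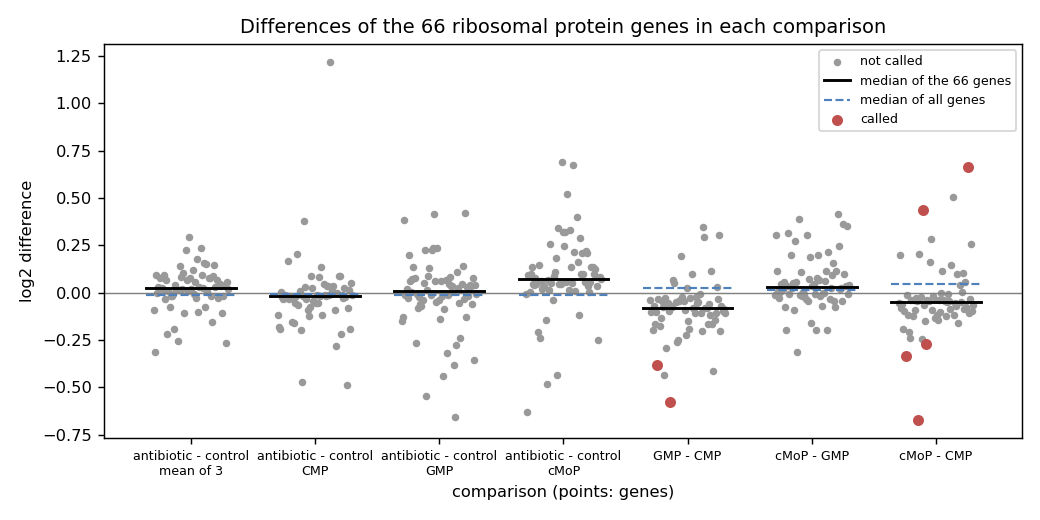
Log2 difference (y axis) of each of the 66 ribosomal protein genes in 4 comparisons of antibiotic with control and 3 comparisons between progenitors (x axis). Points are genes, red where called; black bars are their medians and dashed blue bars the medians of all genes. In GMP minus CMP the median is -0.081 against 0.025 for all genes, and the red points are Rpl3 and Rpl17.

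Between cMoPs and GMPs no ribosomal protein gene was called by limma (background 5.42 percent of all genes), and 4 had an unadjusted p under 0.05. The median was 0.030, against 0.013 for all genes, and 42 of the 66 (63.6%) were above 0. Among the other 1071 genes of the brightest 5%, 66.7% were above 0, with a median of 0.058, and 8.68% were called. Taken by water, 52 of 66 were above 0 in antibiotic water, with a median of 0.067, and 28 of 66 in control water, with a median of -0.018. The smallest adjusted p belonged to Rpl34, of the large subunit (0.39 ± 0.12, adjusted p = 0.0742). Within antibiotic water Rpl34 rose by 0.79 ± 0.15 (limma's adjusted p = 0.0048), the only one of the 66 called there, against a background of 3.90 percent, and within control water it differed by -0.01 ± 0.18 (limma's adjusted p = 0.995). The other 3 were Rpl3l (0.31), Rps7, a small subunit protein (0.35), and Rps27l, a paralog of Rps27 that p53 induces (0.25). The 95% interval of the difference lay within 1.5-fold either way for 57 of the 66. With limma's trended and robust variances, over the brighter genes alone, or without GMP antibiotic 3, Rpl34 was called, and without cMoP antibiotic 2, Rps7 was called.

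Between cMoPs and CMPs, 5 of the 66 were called, which is 7.58% against a background of 18.9 percent, with 2 higher (background 9.72 percent) and 3 lower (background 9.20 percent) in cMoPs. The difference was below 0 for 51 of the 66, with a median of -0.051, against 41.9% of all genes and a median of 0.044. Among the other 1071 genes of the brightest 5%, 44.2% were below 0, with a median of 0.039, and 35.2% were called in either direction. Taken by water, 31 of 66 were below 0 in antibiotic water, with a median of 0.005, and 52 of 66 in control water, with a median of -0.11, and the waters were not compared by a test of the genes as a group. The count of calls was 2 without cMoP control 2, and 3 without any one of CMP antibiotic 1, CMP antibiotic 3, CMP control 2, CMP control 3, GMP antibiotic 1, GMP antibiotic 3 and cMoP control 1. Both comparisons with CMPs share the CMP arrays.

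Rpl3 fell here too. It had 10.44, 10.52 and 10.04 in antibiotic cMoPs and 10.34 and 10.62 in control cMoPs, all below the CMP arrays given above. The difference was -0.67 ± 0.12 (limma's adjusted p = 0.000744). Its other probe sets differed by 0.15 and 0.05, and with the mean of the probe sets the value was -0.16 (limma's adjusted p = 0.326).

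Rps4l, a gene named for its likeness to Rps4, rose. It had 7.64, 7.20 and 6.97 in antibiotic cMoPs and 6.85 and 7.44 in control cMoPs, against 5.97, 6.35 and 6.58 in antibiotic CMPs and 6.89, 6.80 and 6.67 in control CMPs. Only cMoP control 1 reached into the CMP range, and the lowest arrays were antibiotic CMPs. The difference was 0.66 ± 0.17 (limma's adjusted p = 0.0102), and without cMoP control 2 it was 0.52 (limma's adjusted p = 0.0741). Within antibiotic water it was 0.97 (adjusted p = 0.00728) and within control water 0.36 (adjusted p = 0.444), both by limma.

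Rpl34 rose as well. It had 9.46, 9.86 and 9.69 in antibiotic cMoPs and 9.39 and 9.44 in control cMoPs, against 8.99, 8.80 and 8.81 in antibiotic CMPs and 9.33, 9.33 and 9.36 in control CMPs. Every cMoP array lay above every CMP array, though the control arrays of both lay close together. The difference was 0.44 ± 0.11 (limma's adjusted p = 0.0103), called under 27 of 27 alternatives. Within antibiotic water it was 0.80 ± 0.15 (limma's adjusted p = 0.00127) and within control water 0.08 ± 0.17 (limma's adjusted p = 0.847).

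Rpl17 and Rpl37a, a small zinc-binding protein of the large subunit, fell by less. Rpl17 had 6.51, 6.26 and 6.01 in antibiotic cMoPs and 6.23 and 6.20 in control cMoPs, and the highest of these lay within the CMP range. Rpl37a had 10.82, 10.79 and 10.97 in antibiotic cMoPs and 10.72 and 10.82 in control cMoPs, against 11.13, 10.96 and 11.21 in antibiotic CMPs and 10.92, 11.24 and 11.05 in control CMPs, also with overlap. The differences were -0.33 ± 0.11 (limma's adjusted p = 0.0427) and -0.27 ± 0.09 (limma's adjusted p = 0.0464). The call was lost in 15 of 27 alternatives for Rpl17 and in 16 of 27 for Rpl37a, with limma's adjusted p of up to 0.106 and 0.157.

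**Figure D3:**
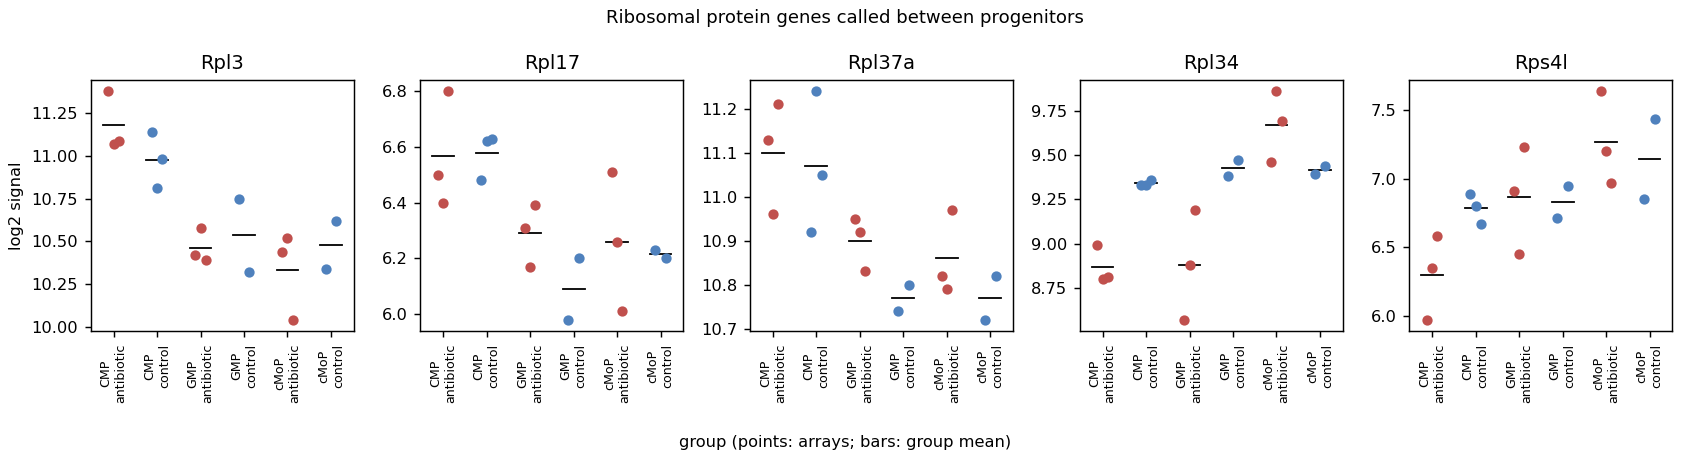
Log2 signal (y axis, own scale in each panel, not starting at 0) of the 5 ribosomal protein genes called between progenitors, by progenitor and water (x axis). Points are arrays and bars are group means. Rpl3 is lower in every GMP and cMoP array than in any CMP array, and Rpl34 is lowest in antibiotic CMPs and GMPs.

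The comparison of antibiotic with control water asks which genes respond to the treatment in these progenitors. In the mean of CMPs, GMPs and cMoPs, 0 of the 66 were called by limma, against a background of 0.514 percent of all genes, and 4 had an unadjusted p under 0.05. In CMPs, GMPs and cMoPs taken alone, 0 of the 66 were called, against backgrounds of 0.0406, 0.0721 and 0.131 percent, and 4, 3 and 6 had an unadjusted p under 0.05. With limma's trended and robust variances the counts were also 0. The medians were 0.026 in the mean, -0.020 in CMPs, 0.008 in GMPs and 0.074 in cMoPs, against -0.013, -0.007, -0.013 and -0.012 for all genes. The 95% interval lay within 1 log2 unit either way for 66 of the 66 in the mean and for 65, 63 and 61 in CMPs, GMPs and cMoPs. It lay within 1.5-fold for 64 in the mean and for 55, 49 and 44 in the single progenitors, and for the rest a wider difference remains within the error. Of 10 cMoP markers, 4 were called lower in the antibiotic mean, with a log2 summed signal of 10.88 to 11.67 in antibiotic CMPs, against 11.60 to 11.91 in control CMPs. Over 12 marker lists and the 3 progenitors, the summed signals of the waters did not overlap in 8 of 36 cases. With 2 or 3 arrays per group a lack of overlap can arise by chance. Its share over all genes was not counted, so the cases are a description. Those of mast cells, basophils and eosinophils were 10.49 to 10.88 in antibiotic CMPs, against 10.08 to 10.41 in control CMPs, and 12.93 to 13.12 in antibiotic GMPs, against 12.38 to 12.68 in control GMPs. Stem cell markers were lower in antibiotic cMoPs, at 7.83 to 7.90, against 8.18 to 8.30 in control cMoPs. In the other 5 cases the sum was higher after antibiotics: dendritic markers in CMPs, mature neutrophil markers in GMPs, and mature neutrophil, T and NK cell and cMoP markers in cMoPs. A sum is carried mostly by its brightest genes. Gene by gene, 8 of 13, 8 of 15, 10 of 15, 4 of 12 and 5 of 10 were above 0, in the same order. The T and NK cell markers in cMoPs had a median of -0.15, against the direction of their sum. The part of these cells in the values of the ribosomal protein genes was not tested.

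In cMoPs 56 of the 66 differences were above 0, against 47.8% of all genes. Among the other 1071 genes of the brightest 5%, 56.2% were above 0, with a median of 0.020. The count of 56 rested on 1 array: 39 of the 66 genes were lowest among the cMoP arrays in cMoP control 1. The share of all genes lowest there was not counted. Without cMoP control 1, 39 of 66 were above 0 and the median was 0.017. Without cMoP control 2, 54 were above 0, the median was 0.12, and Rpl7l1 and Rplp2 were called.

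Rpl34 had the smallest p in the mean (-0.25 ± 0.09, limma's adjusted p = 0.388), in CMPs and in GMPs. In CMPs, by the values given above, the antibiotic arrays were all lower than the controls (-0.47 ± 0.15, limma's adjusted p = 0.479). In GMPs it had 8.57, 8.88 and 9.19 after antibiotics, against 9.38 and 9.47 in controls, again without overlap (-0.55 ± 0.17, limma's adjusted p = 0.48). In cMoPs the antibiotic arrays lay above the controls, by 0.26 ± 0.17. The test of whether the antibiotic difference varied between progenitors gave Rpl34 limma's adjusted p = 0.696. For that test 0 of the 66 were called, against a background of 0.00451 percent, and 3 had an unadjusted p under 0.05, the others being Rpl7l1 and Rpl39l. Without cMoP control 2, Rpl7l1 was called in it.

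In cMoPs the smallest p belonged to Rpl5, which with Rpl11 carries a ribosomal RNA and binds Mdm2, the ligase that degrades p53. Rpl5 had 6.44, 6.72 and 6.50 in antibiotic cMoPs, against 5.86 and 5.87 in control cMoPs, without overlap (0.69 ± 0.22, limma's adjusted p = 0.617). Rplp2, a stalk protein, had 5.06, 5.41 and 5.39 in antibiotic cMoPs, against 4.15 and 5.07 in control cMoPs, with cMoP control 1 far below the rest (0.68 ± 0.25, limma's adjusted p = 0.721). It was 1.14 without cMoP control 2 and 0.22 without cMoP control 1. Rpl39l and Rpl30 differed by -0.44 and -0.48 (limma's adjusted p = 0.761 and 0.776).

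In CMPs the widest difference was that of Rps15, a small subunit protein, at 1.22 ± 0.50 (limma's adjusted p = 0.637). It had 5.44, 5.13 and 5.37 in antibiotic CMPs, against 5.07, 2.78 and 4.43 in control CMPs. The control arrays spread over more than 2 log2 units, and the range of Rps15 over the 16 arrays, 3.17, was the widest of the 66. Rpl37 differed by 0.38 and Rps4l by -0.49 in CMPs (limma's adjusted p = 0.664 and 0.686). In GMPs Rpl3l, Rplp0 and Rpl7l1 differed by 0.42, -0.32 and -0.44 (limma's adjusted p = 0.576, 0.634 and 0.69). The other probe set of Rplp0, dimmer and among neighbours of the gene's own chromosome, differed by 0.36 ± 0.21 in GMPs, the opposite direction. In the mean of the progenitors Rps7, Rpl3l and Rpl5 differed by -0.27, 0.23 and 0.29 (limma's adjusted p = 0.429, 0.443 and 0.46).

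Members with a role in disease or signalling are given by their differences between GMPs and CMPs and in the antibiotic mean. Rps19, the gene most often mutated in Diamond-Blackfan anaemia, had 12.25, 12.28 and 12.26 in antibiotic CMPs, against 12.23, 12.27 and 12.30 in control CMPs. It differed by -0.08 ± 0.08 between GMPs and CMPs and by 0.08 ± 0.07 in the antibiotic mean. Rps14, whose loss of 1 copy underlies an anaemia with a deletion of a chromosome arm in humans, differed by -0.20 ± 0.13 and -0.08 ± 0.11. Rpl11 differed by -0.20 ± 0.18 and 0.10 ± 0.15. Rps6, the substrate of the S6 kinases, lay between 12.44 and 12.66 on all arrays and differed by -0.07 ± 0.08 and 0.04 ± 0.07. Rpl38, known in mouse for the translation of Hox mRNAs, lay between 12.29 and 12.51 and differed by -0.04 ± 0.08 and 0.02 ± 0.06. Rpsa, a small subunit protein also known as a laminin receptor, differed by -0.11 ± 0.08 and 0.02 ± 0.07. Of the stalk proteins, Rplp0 differed by -0.11 ± 0.09 and -0.10 ± 0.08, and its other probe set by -0.33 ± 0.14 and 0.32 ± 0.12 (limma's adjusted p = 0.142 and 0.366). Rplp1 differed by -0.02 ± 0.08 and 0.03 ± 0.06, and Rplp2 by -0.05 ± 0.17 and 0.24 ± 0.14. None of these was called in either comparison, against the backgrounds given above.

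Paralogs of one another can replace each other in the ribosome of some tissues. Between cMoPs and CMPs, Rpl3 fell by 0.67 and Rpl3l differed by 0.29 ± 0.11 (limma's adjusted p = 0.0824). Within antibiotic water Rpl3l rose by 0.49 ± 0.14 (limma's adjusted p = 0.0308), one of 4 members called there, against a background of 13.5 percent, and within control water it differed by 0.08 ± 0.16 (limma's adjusted p = 0.837). Rpl3l lay between 3.48 and 4.51 on all arrays, below the median gene of each array except cMoP antibiotic 2. Rpl22 and Rpl22l1, which in zebrafish have opposing roles in blood cell development, differed by -0.21 ± 0.09 and -0.24 ± 0.11 (limma's adjusted p = 0.112 and 0.14). Rpl7 and Rpl7l1 differed by -0.14 ± 0.12 and -0.10 ± 0.14, Rpl39 and Rpl39l by -0.05 ± 0.13 and 0.16 ± 0.12, and Rps27 and Rps27l by 0.00 ± 0.27 and 0.10 ± 0.11. Rps27 ranged from 4.93, in GMP control 1, to 6.80 over the arrays. Whether the probes tell such paralogs apart was not tested.

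Many ribosomal protein genes have processed copies elsewhere in the genome, so the place of each probe set was examined, after the values were seen, through the genes named by the 5 probe set numbers on either side. For 21 of the 66 (31.8%) these neighbours named genes of another chromosome than the gene's own, against 119 of 21925 other genes (0.543%). These 21 probe sets had a median level of 12.36, against 6.85 for the other 45. For 17 of them another probe set lay among neighbours of the gene's own chromosome, and for 14 of these it was at least 1 log2 unit lower. Identical values on all arrays were found for 6 probe sets of Rps12, for 2 of Rpl23a and for 2 of Rps19. What these probes match was not tested. The 5 genes called between progenitors were all among the 45. Between GMPs and CMPs 21 of the 21 and 35 of the 45 were below 0, with medians of -0.083 and -0.070. In the 24 genes with more than 1 probe set, all probe sets had the same sign in 21 between GMPs and CMPs, in 14 between cMoPs and CMPs and in 9 between cMoPs and GMPs. For antibiotics it was 13 in the mean, 10 in CMPs, 11 in GMPs and 16 in cMoPs. The probe sets of Rpl23a, being identical, agree by construction and are counted. Rps12 is also counted as agreeing between GMPs and CMPs, although a probe set of it showed no difference there.

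**Figure D4:**
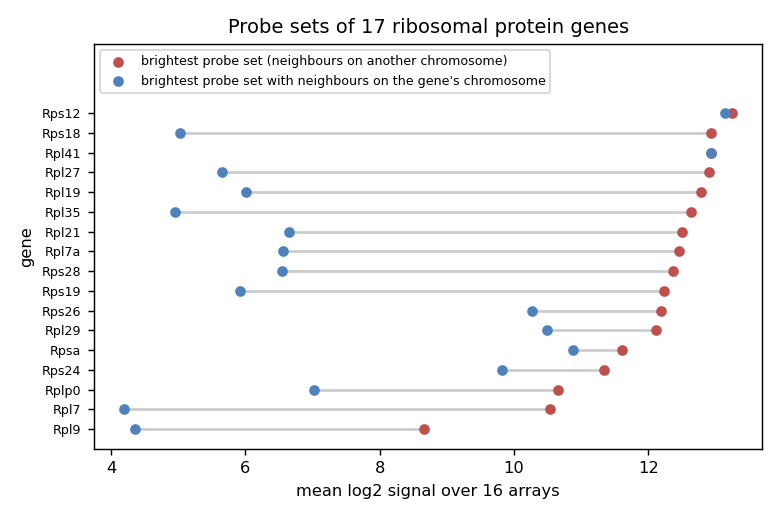
Mean log2 signal over the 16 arrays (x axis) of the brightest probe set, which was used, and of the brightest probe set among neighbours of the gene's own chromosome, for 17 ribosomal protein genes (y axis). Lines join the probe sets of a gene. The used probe sets lie between 8.66 and 13.25 and the others between 4.19 and 13.14.

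Among the factors that build ribosomes, many were lower in GMPs and in cMoPs than in CMPs. Of 101 measured ribosome biogenesis genes, 24 fell and 0 rose in GMPs relative to CMPs, against the background of 8.17 percent lower, with a median of -0.20. In cMoPs relative to CMPs 24 fell and 0 rose, against 9.20 percent, with a median of -0.19. Calls are more frequent among bright genes. In either direction 16.0 and 18.9 percent of all genes were called in these comparisons. Among genes of the brightest 5% other than ribosomal protein genes the shares were 29.9% and 35.2%, and their split by direction was not counted. The counts of falls were 10 to 36 and 16 to 35 over the alternatives, with the low ends without GMP control 1 and without cMoP control 1. Rcl1, a factor of the small subunit processome, fell in GMPs (-0.67) and in cMoPs (-0.75). Riok2, a kinase of late small subunit maturation, and Polr1e, a subunit of RNA polymerase I, fell in GMPs (-0.59 and -0.58). Gnl3, the nucleolar protein nucleostemin, and Nat10, an RNA acetyltransferase, fell in cMoPs (-0.57 and -0.49). Limma's adjusted p of these 6 values lay between 2.23e-05 and 0.00411. Rpl3 and Rpl17 fell in GMPs beside 24 of these 101 genes, and no test set one list against the other. Between cMoPs and GMPs limma called 0 of the 101, against a background of 5.42 percent of all genes.

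In the antibiotic mean 80 of the 101 biogenesis genes were below 0, with a median of -0.092. Among all genes 54.2% were below 0, with a median of -0.013. Among genes of the brightest 5% other than ribosomal protein genes the share was 64.5%, with a median of -0.037. By progenitor 76 of the 101 were below 0 in CMPs, 88 in GMPs and 56 in cMoPs. Among all genes 51.7%, 52.2% and 52.2% were below 0 there, and among those bright genes 66.9%, 66.9% and 43.8%. The medians of the 101 were -0.077, -0.15 and -0.012, against -0.007, -0.013 and -0.012 for all genes and -0.050, -0.062 and 0.020 for the bright genes. These shares were not compared by a test. Of the 101, 1 was called, Nhp2, a protein of H/ACA small nucleolar particles (-0.36 ± 0.08, limma's adjusted p = 0.133), beside 0.514 percent of all genes. The call was lost in 9 of 26 alternatives, each without 1 array (CMP antibiotic 1, CMP control 1, GMP antibiotic 1 or 2, GMP control 1 or 2, cMoP antibiotic 1 or 2, or cMoP control 1), with an adjusted p of up to 0.278, and 0 to 3 of the 101 were called lower over the alternatives. By group means Nhp2 had 9.57 ± 0.21 in antibiotic CMPs, against 9.87 ± 0.06 in control CMPs (SD, 3 arrays each). It had 9.27 ± 0.14 in antibiotic GMPs, against 9.86 ± 0.03 in control GMPs, and 9.62 ± 0.05 in antibiotic cMoPs, against 9.80 ± 0.01 in control cMoPs (SD, 3 and 2 arrays). The group mean of Nhp2 was lower after antibiotics in each progenitor. Of 11 chaperones and import factors of ribosomal proteins, 0 were called in the antibiotic mean, beside 0.514 percent of all genes, with a median of -0.10. In GMPs relative to CMPs 4 of the 11 fell, beside 8.17 percent of all genes lower, among them Heatr3 (-0.57), which imports Rpl5, Tsr2 (-0.39), the escort of Rps26, and the nucleolar protein Ncl (-0.34). The call of Tsr2 was lost in 10 of 27 alternatives. Ncl is also one of the 101 biogenesis genes, so its fall is counted in both lists.

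**Figure D5:**
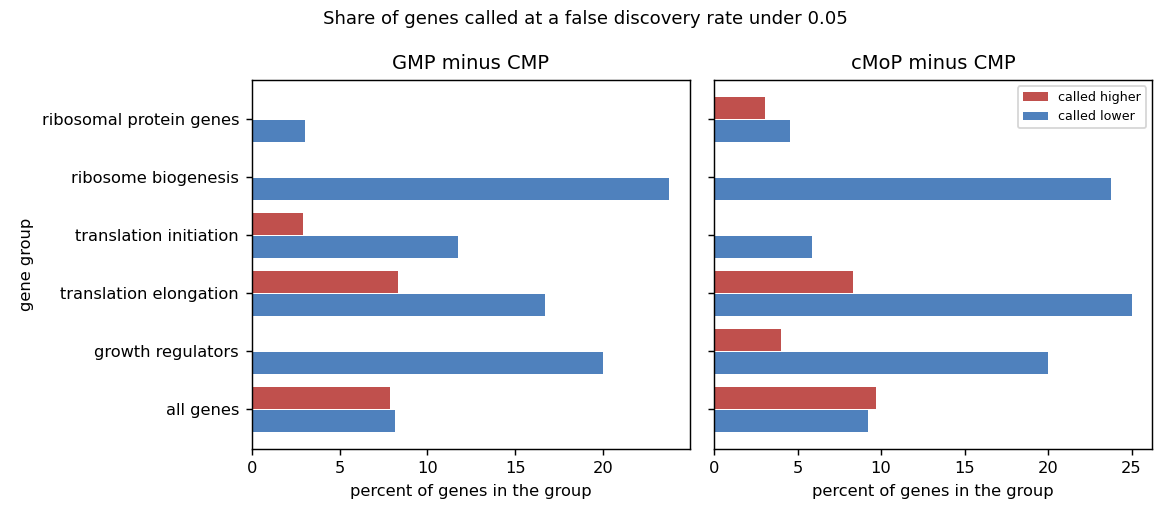
Percent of the genes of each group (x axis) called higher or lower by limma at a rate under 0.05, in GMPs minus CMPs (left) and cMoPs minus CMPs (right). Ribosome biogenesis genes have 24 of 101 lower and none higher in each comparison, and ribosomal protein genes have 2 lower in the left panel and 2 higher and 3 lower in the right one.

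The shares of all genes called were 8.17 percent lower and 7.87 percent higher in GMPs relative to CMPs, and 9.20 percent lower and 9.72 percent higher in cMoPs relative to CMPs, and the short lists that follow are counted beside them. Of 34 initiation factor genes, 4 fell and 1 rose in GMPs relative to CMPs, among them Eif2a (-0.39), Eif3d (-0.37) and Eif4g3 (0.40), and 2 fell in cMoPs relative to CMPs (Eif4a2, -0.51, and Eif2a, -0.30). Of 12 elongation and termination genes, 2 fell and 1 rose in GMPs relative to CMPs, and 3 fell and 1 rose in cMoPs relative to CMPs. The gene that rose was Gspt2, a termination factor (0.60 and 1.29). Eef1e1, a scaffold of tRNA synthetases, fell in both (-0.69 and -0.58). Eef2k, the kinase that slows elongation, fell by 0.60 in cMoPs relative to CMPs. Of 17 other genes listed for TOP transcripts, 2 fell in GMPs relative to CMPs, and 14 of 17 were below 0. The 2 were the non-coding Snhg1 (-0.41) and Eef1g (-0.26). Several genes of this list are also in the initiation or elongation lists, and the fall of Eef1g is counted in both. The call of Eef1g was lost in 13 of 27 alternatives, that of Gspt2 in GMPs in 6 and that of Eif2a in cMoPs in 9. Counting both directions together, the initiation factors were called no more often than all genes in either comparison.

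Of 25 regulators of growth, 5 fell and 0 rose in GMPs relative to CMPs, and 5 fell and 1 rose in cMoPs relative to CMPs, beside 8.17 and 9.20 percent of all genes lower. Mycn, a MYC family factor that is also in the stem cell marker list, fell in GMPs (-0.95) and in cMoPs (-1.16), both relative to CMPs. Rictor, of the mTOR complex that acts on Akt, fell in the same comparisons (-0.68 and -0.70), and so did Tsc1, a brake on mTOR (-0.46 and -0.62). Myc fell by 0.40 in cMoPs relative to GMPs, a call lost in 8 of 27 alternatives. Of 22 targets of p53, 5 fell and 1 rose in GMPs relative to CMPs, and 7 fell and 0 rose in cMoPs relative to CMPs, beside the same shares of all genes. Among them were Trp53inp1 (-0.99 and -1.74), Zmat3 (-0.78 and -0.77) and, in GMPs, Sesn1 (-0.92). In the antibiotic mean Trp53inp1 rose by 0.54 (limma's adjusted p = 0.16), the only one of the 22 called, beside 0.514 percent of all genes, and the call was lost in 10 of 26 alternatives. No gene of the initiation, elongation, TOP or growth lists was called by limma in the antibiotic mean.

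After removal of the group means the median correlation between pairs of the 66 genes was 0.155 over 2145 pairs and 16 arrays, and 0.412 over 528 pairs of the brighter 33, pairs that share arrays and scaling. The genes of the table closest to the mean of the 66 over the 16 arrays were Plcl2, Creg1, Gm5848, Nol7 and Eif2b2, with Pearson's r of 0.868, 0.857, 0.845, 0.835 and 0.829. These were picked from 22180 genes and are a description.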

How the data were processed

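Values were deposited by the authors as log2 signals of probe sets. The submitters' processing notes name Transcriptome Analysis Console and Partek, and the summarisation, normalization and versions are not given in the sources. Of 41345 probe sets, 23521 carried 1 gene symbol, 1814 several and 16010 none. The brightest single-symbol probe set stood for each of 22180 genes, without a filter on dim genes. In R 4.3.3, limma 3.58.1 estimated a mean per group (6 groups, 16 arrays) with moderated variances, and p-values were adjusted by Benjamini-Hochberg over all genes. Progenitor comparisons averaged the waters. The script was tested on simulated data. Arrays give no read depth, and their number limits the precision.

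The members and lists were chosen with earlier results of these data known. Genes named were paralog pairs, stalk, anaemia and growth genes in every case, the called members, the 4 of smallest p per antibiotic comparison, the brightest 3 and dimmest 5, and 3 called genes per other list. Same-numbered arrays correlated, after removal of group means, at -0.049 to 0.104 within a water and at -0.027 to 0.026 within a progenitor, so the numbers were not taken to pair samples. Alternatives changed the scaling, the probe set rule, the fit, a block for replicate number and each array in turn. Sequences are from RefSeq's table of GRCm38.p6.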

Additional observations from a re-analysis of the deposited data

Results flagged for a closer look

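The antibiotic differences of Rpl34 had opposite signs in the progenitors, with no overlap of antibiotic and control arrays in any of them, and none of them was called. The antibiotic minus control difference was -0.47 in CMPs and -0.55 in GMPs, with every antibiotic array below every control array, and 0.26 in cMoPs, with every antibiotic array above every control array. The test of the difference between progenitors gave limma's adjusted p = 0.696 over all genes. Rpl34 was the only one of 33 named members with this pattern. The named members include those picked for the smallest antibiotic p in these data. With so few arrays per group a lack of overlap can arise by chance. The share of all genes with the pattern was not counted, so it is a description. No group was large enough for a search for single outlying arrays.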

How the results depend on the processing

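In GMPs minus CMPs the 2 called members became 1 with the mean of probe sets, 7 with trended and robust variances and 1 to 4 with 1 array left out. In cMoPs minus GMPs the 0 called became 1 over the brighter genes alone, 1 with trended and robust variances and 0 to 1 with 1 array left out. In cMoPs minus CMPs the 5 called became 3 after median centring, 3 over the groups of the comparison alone, 3 with replicate number as a fixed block and 2 to 5 with 1 array left out. As a random block, with a consensus correlation of 0.011, replicate number left 5 called. The block changed no other count of calls. With 1 array left out, 0 to 2 were called for antibiotics in cMoPs and 0 to 1 for the difference between progenitors. The cause of these changes was not tested. The antibiotic difference of Rplp0 in GMPs was 0.022 with the mean of its probe sets and 0.36 with the probe set among neighbours of its own chromosome, an alternative chosen after seeing the data, against -0.32 as reported. The other 378 counts and medians stayed within set bounds. Counts were equal or within 1.5 times, and medians moved by less than 0.124, the SD of the members' median between replicates. This bound exceeds every main median, so it could not show a change of sign. Medians ran from -0.063 to 0.010 for antibiotics in CMPs, -0.035 to 0.030 in GMPs and -0.003 to 0.046 in the mean. Between cMoPs and GMPs they ran from -0.004 to 0.069. The other medians kept their sign. Limits are the 2 control arrays of GMPs and of cMoPs, the absence of detection calls, so that the dimmest members are not shown to be above background, and the lack of probe sequences.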
